A study of Ascaris suum with 9 samples.

Results

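Whole larvae of Ascaris suum that had been exposed to red clover extract were set directly against larvae exposed to biochanin A, gene by gene. Of the 17974 genes in the count table, 14893 had at least 10 reads in at least 3 of the 6 treated libraries and are the genes compared here. Red clover extract was given at 200 µg/mL and biochanin A at 100 µM, each for 3 hours and each in 3 libraries. A further 3 libraries came from larvae kept in the solvent alone, which both treatments share as control. The doses are not matched. The labels do not state the biochanin A content of the extract, so each difference holds for these doses only.

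Ascaris suum is the large roundworm of the pig intestine, and its larvae pass through the liver and lungs before they mature in the gut. Biochanin A is an O-methylated isoflavone, a phenolic plant compound of legumes. Red clover makes it together with other isoflavones such as formononetin, so the extract holds a mixture of which biochanin A is one constituent. The comparison addresses where the response to the mixture departs from the response to the pure compound. The table pairs none of its identifiers with a gene name and no annotation was used here, so genes are given by identifier and no function is assigned to them. For the same reason the label "whole organism" could not be checked against marker genes. In RNA from whole larvae, fewer cells of a type and less RNA per cell cannot be told apart.

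The 6 treated libraries held 44324212 to 53786882 reads, and the compared genes took at least 99.974% of the reads of every library. After scaling by TMM, a method that sets libraries to a common level through the bulk of their genes, 1 CPM (a read count scaled to library size) stood for 41.4 to 51.0 reads in the treated libraries. Spearman correlations of log2 CPM were 0.992 to 0.994 between biochanin A libraries, 0.992 to 0.996 between extract libraries and 0.985 to 0.991 between the treatments. By the root mean square difference of log2 CPM the ranges overlapped. They were 0.575 to 0.677 between biochanin A libraries, 0.438 to 0.646 between extract libraries and 0.572 to 0.822 between the treatments. Extract replicate 2 lay closer to biochanin A replicates 1 and 2 (0.5721 and 0.5718) than to extract replicate 1 (0.5986). It lay closest to extract replicate 3 (0.438). The first principal component of the 6 libraries carried 34.9% of the variance, with biochanin A libraries at -45.1 to -17.9 and extract libraries at 14.1 to 48.5. Biochanin A replicate 3 and extract replicate 1 lay farthest out on it. The second component carried 23% of the variance and did not separate the treatments. On it biochanin A replicate 3 lay at -40.8 and extract replicate 1 at -25.6, with the other libraries at 8.1 to 25.3. Nothing in the labels ties the replicates to separate cultures, and the p-values therefore reflect the spread between these libraries, which may be technical.

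Extract and biochanin A gave different levels for 2255 genes, 15.1% of those compared, in edgeR's quasi-likelihood test at an adjusted p below 0.05. Of these, 1128 genes were higher with extract (7.57% of those compared) and 1127 were lower (7.57%). The differences were small for most of them. The median was 1.32-fold among genes higher with extract, with quartiles of 1.23 and 1.46. Among genes lower with extract it was 1.34-fold, with quartiles of 1.23 and 1.54. An estimate above 1.5-fold was found for 251 of the higher genes (22.3%) and 314 of the lower ones (27.9%). Over 2-fold, 58 genes were higher and 75 lower with extract, together 133 genes or 0.893% of those compared. The 3 extract libraries did not overlap the 3 biochanin A libraries for 2233 of the 2255 called genes. Without regard to the test, they did not overlap for 35.5% of all genes compared, and 3060 such genes were not called.

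**Figure D1:**
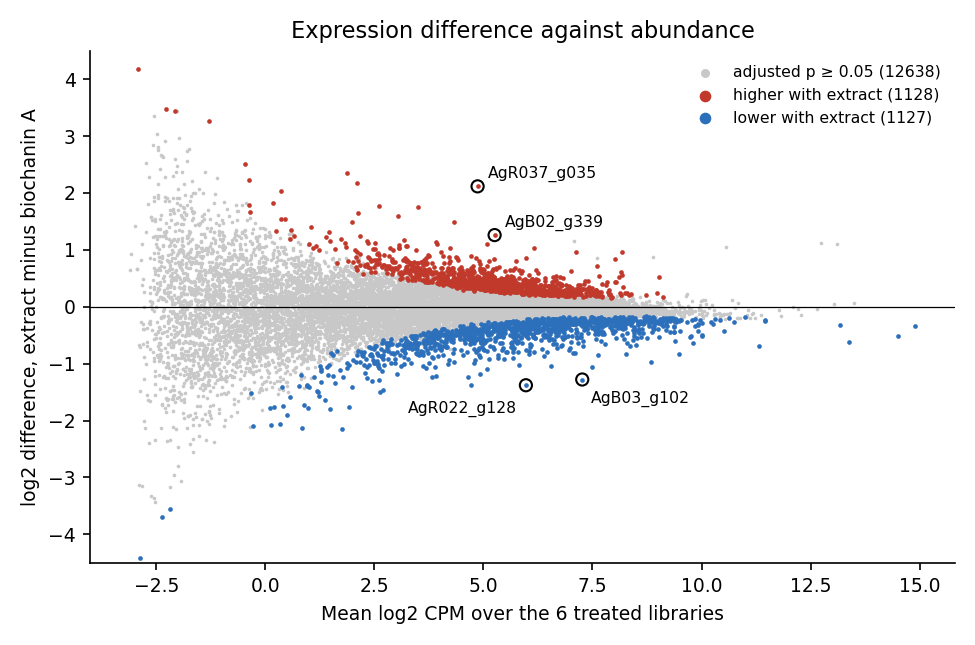
Each point is 1 of 14893 genes, with its mean log2 CPM over the 6 treated libraries on the horizontal axis and the log2 difference of extract minus biochanin A on the vertical axis. Red points are the 1128 genes higher and blue points the 1127 genes lower with extract at an adjusted p below 0.05, the 4 named genes are circled, and 3 genes lie outside the vertical range. The called differences narrow towards abundant genes, and most points at high abundance lie close to 0.

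The even balance of higher and lower genes held under TMM and not under every scaling. When libraries were scaled by their totals, the median log2 difference of all genes moved from -0.000909 to 0.0557, and 1621 genes were called higher with extract against 777 lower. Of the 2255 genes, 1905 were called again under that scaling, all in the same direction. The number of calls fell whichever treated library was left out. It was 1600, 1527 and 1423 without biochanin A replicates 1, 2 and 3. It was 1877, 1482 and 1504 without extract replicates 1, 2 and 3. Each such fit has fewer libraries in a treatment, so the fall does not show that particular libraries carry the calls. Genes higher with extract numbered 816, 737 and 707 without these biochanin A replicates, and 919, 713 and 694 without these extract replicates. Of the genes called without biochanin A replicate 3, 1356 were among the 2255.

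The 4 genes described next were picked by the size of their difference: the 2 highest and 2 lowest with extract among called genes of at least 50 CPM in either treatment whose extract and biochanin A libraries did not overlap. Their difference between the treatments, its p and that lack of overlap therefore describe the selection and are no further evidence. The comparisons of these genes with solvent reuse the treated libraries that picked them, so those p-values are no separate evidence either. AgR037_g035, AgB02_g339 and AgR022_g128 reached 50 CPM only in the treatment where they were higher. AgR037_g035 stood highest with extract relative to biochanin A by this rule. Its level was 71.3, 54.6 and 56.9 CPM in the 3 extract libraries. It was 15.3, 13.2 and 13.6 CPM in the biochanin A libraries. In solvent it was 34.7, 38.2 and 27.5 CPM. The solvent level lay between those of the treatments and overlapped neither. The log2 difference between extract and biochanin A was 2.12 ± 0.13 (SE), or 4.34-fold, with a 95% interval of 1.85 to 2.39 and an adjusted p of 6.3e-09 by the quasi-likelihood test of edgeR. Against solvent its level was lower with biochanin A (log2 fold change -1.25 ± 0.13, adjusted p = 2.9e-07 by edgeR) and higher with extract (log2 fold change 0.86 ± 0.12, adjusted p = 3.7e-05 by edgeR).

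AgB02_g339 was the other gene named as higher with extract. It reached 62.6, 53.4 and 61.5 CPM with extract against 23.5, 24.8 and 25.8 CPM with biochanin A. The solvent libraries held 19.9, 22.1 and 21.5 CPM, all below those of biochanin A but close to them. Extract exceeded biochanin A by 1.26 ± 0.10 on the log2 scale, or 2.40-fold, with a 95% interval of 1.06 to 1.46 (adjusted p = 9.3e-08 by the quasi-likelihood test of edgeR). Biochanin A and solvent differed by 0.22 ± 0.10 on the log2 scale, which did not pass the test (adjusted p = 0.083 by edgeR). Extract and solvent differed by 1.48 ± 0.10 (adjusted p = 9e-10 by edgeR). For this gene, then, the called differences are those of extract from each of the other groups.

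AgR022_g128 had the largest negative difference by the same rule. It lay at 39.8, 39.7 and 37.4 CPM with extract and at 103.1, 102.3 and 98.3 CPM with biochanin A. Solvent libraries held 26.4, 25.5 and 22.8 CPM. The extract libraries lay between those of solvent and biochanin A, and solvent overlapped neither treatment. The log2 difference of extract minus biochanin A was -1.38 ± 0.08, a level 2.60-fold lower, with a 95% interval of -1.54 to -1.21 (adjusted p = 3.1e-09 by the quasi-likelihood test of edgeR). The gene rose over solvent with both treatments, by 2.03 ± 0.08 on the log2 scale with biochanin A and by 0.65 ± 0.08 with extract (adjusted p = 3.1e-13 and 6.3e-06 by edgeR).

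AgB03_g102 showed the same order of groups at a higher level. Its extract libraries held 106.5, 98.7 and 91.4 CPM, and its biochanin A libraries 249.6, 227.4 and 242.1 CPM. Its solvent libraries held 38.1, 41.7 and 39.9 CPM. Extract was lower than biochanin A by a log2 difference of -1.28 ± 0.07, with a 95% interval of -1.42 to -1.14 (adjusted p = 1.7e-09 by the quasi-likelihood test of edgeR). Over solvent it rose by 2.59 ± 0.07 with biochanin A and by 1.31 ± 0.07 with extract on the log2 scale (adjusted p = 2e-15 and 3.1e-11 by edgeR).

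**Figure D2:**
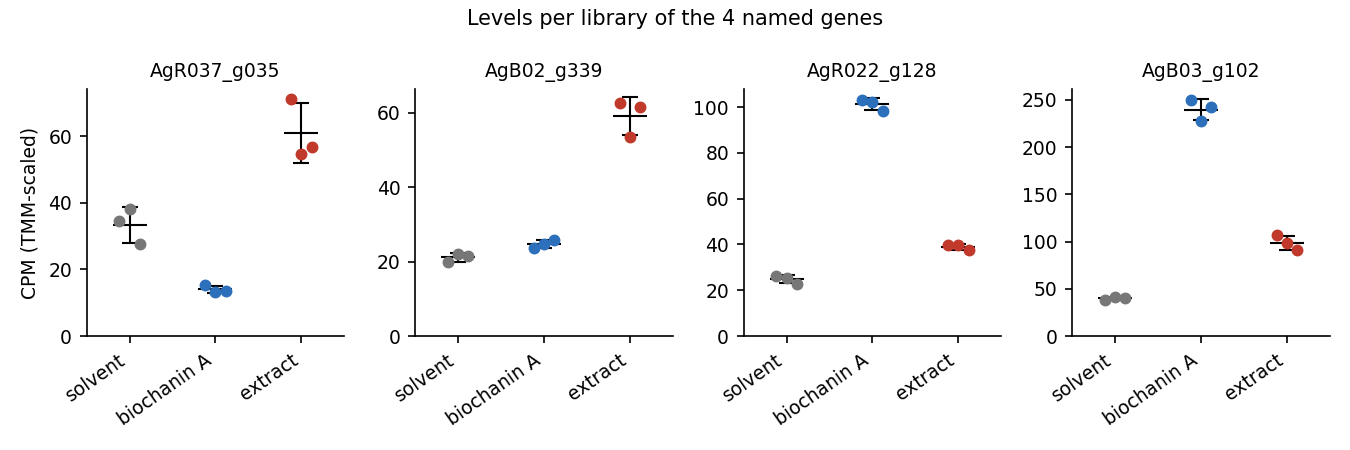
Points give the CPM of each of the 9 libraries for the 4 named genes, in solvent, biochanin A and extract, and black bars the mean with its SD (n = 3 per group). AgR037_g035 lies on opposite sides of solvent with the 2 treatments, AgB02_g339 is near solvent with biochanin A, and AgR022_g128 and AgB03_g102 lie between solvent and biochanin A with extract.

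Set beside the solvent control, the genes that differed between the treatments had medians farther from solvent with biochanin A than with extract. These medians are signed, so genes above and genes below solvent offset each other in them. A median near solvent therefore does not show that the single genes lay near it. The 1128 genes higher with extract had a median log2 fold change against solvent of -0.48 with biochanin A (quartiles -0.70 and -0.30) and of -0.08 with extract (quartiles -0.21 and 0.06). The 1127 genes lower with extract had medians of 0.47 with biochanin A (quartiles 0.21 and 0.85) and 0.07 with extract (quartiles -0.23 and 0.33). The medians over all 14893 genes were -0.01 for both treatments. These comparisons share the solvent libraries, and they reuse the treated libraries that selected the genes, so the values describe the genes and are no separate test. Under scaling by library totals, the medians of all genes shifted to -0.22 with biochanin A and -0.15 with extract. The genes lower with extract then had a median of -0.07 against solvent with extract, a change of sign, and of 0.26 with biochanin A.

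**Figure D3:**
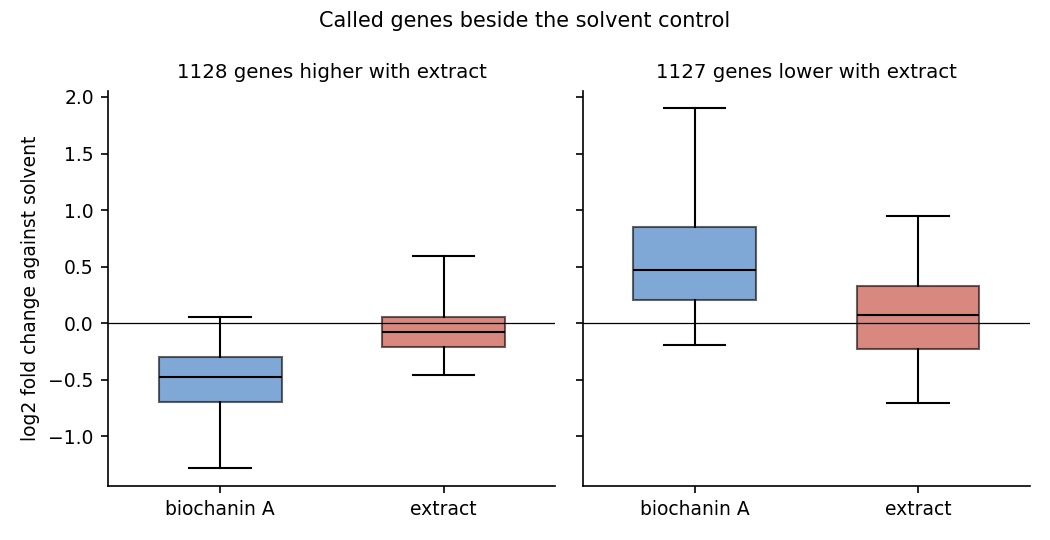
Boxes show the log2 fold change against solvent with biochanin A (blue) and with extract (red) for the 1128 genes higher (left) and the 1127 genes lower (right) with extract. Lines in the boxes are medians, box edges quartiles and whiskers the range from percentile 5 to percentile 95. The extract boxes cross 0 on both sides, with medians of -0.08 and 0.07, while the biochanin A boxes lie to one side of it.

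Counted by the test against solvent, biochanin A lowered 933 of the 1128 genes that were higher with extract, or 82.7%, where it lowered 18.8% of all genes compared. It raised 32 of them, or 2.84%, against 17.2% of all genes. Extract lowered 148 of the same 1128 genes and raised 116, or 13.1% and 10.3%, against 8.25% and 9.45% of all genes. Among the 1127 genes that were lower with extract, biochanin A raised 783 and lowered 47, or 69.5% and 4.17%. Extract raised 333 and lowered 215 of these, or 29.5% and 19.1%. Each of these counts is a comparison's own, and the choice of genes by the difference between the treatments favours counts of this kind.

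The interval of the extract fold change against solvent lay within 1.5-fold either way for 890 of the 1128 genes higher with extract, or 78.9%. With biochanin A it did so for 412 of them, or 36.5%. Among the 1127 genes lower with extract the numbers were 658 (58.4%) with extract and 436 (38.7%) with biochanin A. Over all genes compared they were 53% with extract and 44% with biochanin A. These shares are not matched for abundance. Intervals of the treatment difference were widest in the lowest abundance classes given below, where few called genes lay (36 in class 1, 244 in class 2). The called genes were also selected by the difference between the treatments. Under TMM, for most of the genes higher with extract, the interval thus leaves out a change from solvent of 1.5-fold or more with extract at this dose. These intervals were not counted under other scalings. Under library totals the median log2 fold change of these genes with extract was -0.226, beside -0.151 over all genes.

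The larger differences showed the same order of medians. The 58 genes over 2-fold higher with extract had a median log2 fold change against solvent of -1.43 with biochanin A and 0.04 with extract. Biochanin A lowered 47 of them (81%, beside 18.8% of all genes). Extract lowered 4 (6.9%, beside 8.25%) and raised 10 (17.2%, beside 9.45%). The 75 genes over 2-fold lower with extract had medians of 1.64 with biochanin A and 0.18 with extract. Biochanin A raised 57 of these (76%, beside 17.2% of all genes). Extract raised 18 (24%, beside 9.45%) and lowered 6 (8%, beside 8.25%). These genes too were selected by the difference between the treatments. The extract interval against solvent lay within 1.5-fold for 8 of the 58 genes (13.8%) and 4 of the 75 (5.33%). For most of these genes the data thus do not show that extract left them near the solvent level.

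A p above the threshold does not show that the treatments act alike, so the interval of each difference was also read. For 8047 genes, 54% of those compared, the 95% interval of the difference between extract and biochanin A lay within 1.5-fold either way. For 10969 genes, 73.7%, it lay within 2-fold. The first number includes 1039 called genes, whose difference passed the test but was bounded below 1.5-fold. For 128 called genes the whole interval lay beyond 1.5-fold, and for 30 beyond 2-fold. A further 3540 genes, 23.8%, were not called and had an interval that reached 2-fold or more, so for these the data leave a 2-fold difference possible.

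Abundance set how narrow these intervals were. The compared genes were split into 5 equal classes by mean log2 CPM over the treated libraries, from class 1 (up to 1.86 CPM) to class 5 (78.9 CPM and more). In class 5 the interval lay within 1.5-fold for 95.6% of genes and in class 4 for 89.9%. The share was 66.6% in class 3, 18.1% in class 2 and 0 in class 1. Of the 3540 uncalled genes whose interval reached 2-fold, 2876 were in class 1 and 651 in class 2. At 10.3 CPM and above, a 2-fold difference that passed unseen was possible for 13 genes by this measure, 6 of them in class 3, 1 in class 4 and 6 in class 5.

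**Figure D4:**
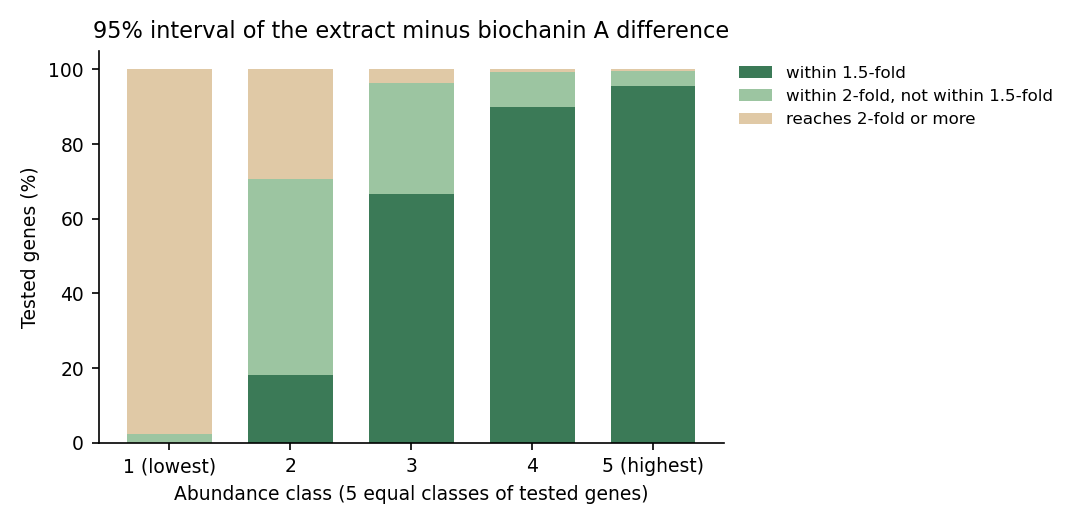
Bars give, for each of the 5 abundance classes, the percentage of tested genes whose 95% interval of the extract minus biochanin A difference lay within 1.5-fold (dark green), within 2-fold but not 1.5-fold (light green) or reached 2-fold or more (tan). The dark share grows from 0 in class 1 to 95.6% in class 5.

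The direction of the called differences changed with abundance. In class 5, the most abundant genes, 464 were lower and 234 higher with extract. In class 4 the order was reversed, with 277 lower and 434 higher, and in class 3 it was 241 lower and 325 higher. Classes 1 and 2 were nearly even, at 18 and 18 genes and at 127 lower and 117 higher. The share of calls that were higher was 33.5% in class 5 and 61.0% in class 4. Under scaling by library totals these shares were 56.2% and 77.2%, with 295 lower and 378 higher in class 5, so the majority in class 5 turned with the scaling while its share stayed below that of class 4. In class 2 library totals gave 105 lower and 159 higher genes. With classes made from abundance in the solvent libraries, class 5 had 419 lower and 286 higher genes, class 2 had 152 and 81, and class 1 had 36 and 10, so the even counts of the lowest classes did not hold under that split. The solvent libraries also enter the fit that gives the calls, through its estimate of spread.

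**Figure D5:**
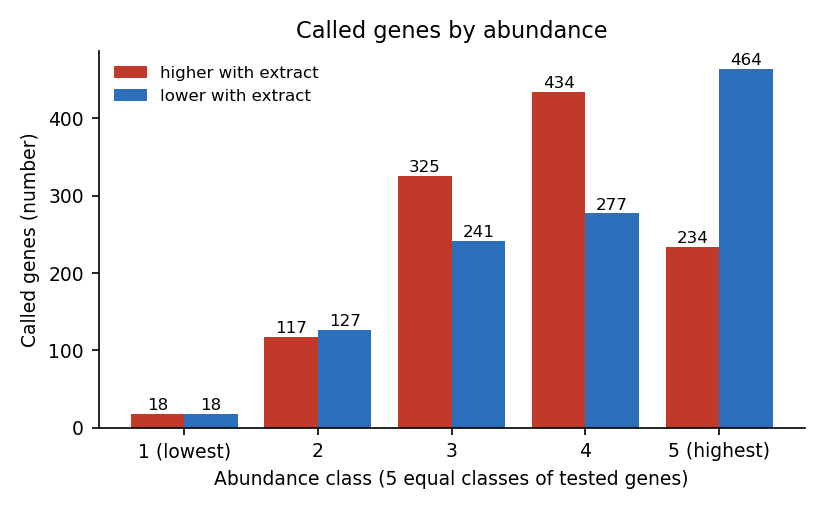
Bars give the number of genes called higher (red) and lower (blue) with extract than with biochanin A in each of 5 abundance classes of 2978 or 2979 genes. Lower genes outnumber higher ones in class 5 (464 against 234) under TMM scaling, and higher genes outnumber lower ones in classes 3 and 4.

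Called differences were smallest among abundant genes, where smaller differences could pass. The median called difference in class 5 was 1.2-fold for higher and 1.23-fold for lower genes, and 3 called genes, all lower with extract, exceeded 2-fold there. In class 2 the medians were 1.73-fold and 1.82-fold. All 36 calls of class 1 exceeded 2-fold, and 17 of the 21 called differences over 4-fold were in this class, whose genes average under 1.86 CPM. The median half-width of the interval in class 1 was 1.54 on the log2 scale, so few smaller differences could pass there. A gene could also enter the comparison through its reads in a single treatment. These counts therefore do not show that differences are larger among genes of low abundance. When genes with a mean under 5 CPM were left out before the fit, 60 genes over 2-fold were called in place of 133. Among the genes lower with extract, the median log2 fold change against solvent with extract was 0.15 in class 5 and -0.16 in class 2, while with biochanin A it was 0.46 and 0.67.

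Among the 100 most abundant genes, those of at least 828 CPM, 28 were called lower with extract and 0 were called higher by edgeR's quasi-likelihood test, beside 7.57% lower and 7.57% higher of all genes compared. In class 5, of nearer abundance, 464 of 2979 genes were called lower and 234 higher. At an unadjusted p below 0.05 there was 1 higher gene among the 100, and DESeq2 and limma voom called 0 higher and 42 and 34 lower. The 100 genes were not counted under scaling by library totals, which turned the majority in class 5. The median log2 difference of the 100 genes was -0.14, and single values ran from -0.69 to 1.12. The highest of these values did not pass the test. The share of reads on each library's 100 most abundant genes was 22.27 to 26.19% with extract (24.4 ± 2.0%, SD, n = 3) and 25.02 to 25.88% with biochanin A (25.4 ± 0.46%, n = 3). The groups overlapped, and the difference of -0.996 percentage points had an exact two-sided permutation p of 0.5, where 3 libraries against 3 cannot go below 0.1. The solvent libraries stood at 20.4 ± 0.54% (n = 3). Without extract replicate 3 the difference was 0.0507 percentage points, so its sign rests on that library.

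Spread between replicates limited the comparison for a few abundant genes. Of 4460 genes with a mean of at least 50 CPM over the treated libraries, 9 varied by over 2-fold between the extract libraries, by 2.18-fold to 6.76-fold. All 9 were highest in extract replicate 1, and together they took 5.01, 2.94 and 0.9% of the reads of extract replicates 1, 2 and 3. They took 0.843 to 1.78% in the biochanin A libraries, where 4 of them also varied by over 2-fold. None of the 9 genes was called between the treatments by edgeR's quasi-likelihood test, which called 15.1% of all genes compared. DESeq2 and limma voom called none of them either, and 0 had an unadjusted p below 0.05 in edgeR. The 9 genes were picked for their spread between the extract libraries, and such spread makes a call unlikely in each tool. Their lack of calls therefore describes the selection. Leaving them out before scaling, a choice made after the data were seen, gave 2258 called genes, of which 2213 were among the 2255. For the median gene of this abundance the highest library exceeded the lowest by 1.11-fold with extract and by 1.08-fold with biochanin A.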

How the data were processed

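The authors deposited raw read counts, whole numbers without normalization, with 1 column per library. The aligner, counter, strand setting and handling of multiply matching reads were not stated in these sources, and near-identical, overlapping or antisense genes may share reads. DESeq2 is named without a role, per the submitters' processing notes. Library names linked columns to samples, and 0 columns had no sample. Genes with at least 10 counts in at least 3 of the 6 treated libraries were kept. Counts were TMM-scaled and tested with edgeR 4.0.16 (R 4.3.3) by the quasi-likelihood F test, robust, in 1 model of 3 groups over 9 libraries with 6 residual degrees of freedom and no block term. Adjustment was by Benjamini-Hochberg over all 14893 genes, threshold 0.05. The SE is the log2 difference divided by the square root of F, and 95% intervals use the fit's t quantile. Log2 CPM had a prior count of 2. No 2 replicates agreed within sampling noise (chi-square divided by its degrees of freedom, 17.1 to 124.1). The workflow was tested on simulated data. Named genes were the 2 highest and 2 lowest by log2 difference with an adjusted p below 0.05, at least 50 CPM in 1 treated group and no overlap between the treated groups; 487 higher and 656 lower genes were eligible. Lists defined by product names could not be applied to unnamed identifiers. The genes compared, the naming rule and the tests were chosen with earlier results of these data known. Alternatives were other scalings, filters, thresholds and libraries, DESeq2 1.42.0, limma 3.58.1 voom and a replicate block.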

Additional observations from a re-analysis of the deposited data

How the results depend on the processing

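The count of 2255 called genes stayed within 1.5 times under DESeq2 size factors (2240), library totals (2398), DESeq2 (2744), limma voom (2169), no filter (2218), filterByExpr (2239), a minimum mean of 5 CPM (2413), only the treated libraries (2587) and without the 20 most abundant genes (2231). With a replicate block 2214 genes were called. The labels do not state that replicate numbers mark a shared batch, so the numbers were not taken as pairs. Deviations of same-numbered extract and biochanin A libraries correlated at 0.0084 to 0.0159, and those of different-numbered ones at -0.0245 to 0.0124. An adjusted p below 0.01 left 1057 genes (491 higher, 566 lower, 70 over 2-fold), and a test against a 1.2-fold bound left 414 (169 higher, 245 lower, 74 over 2-fold), by the construction of stricter thresholds. With the minimum of 5 CPM, 60 genes over 2-fold were called, since most such genes were of low abundance. Leaving out 1 library gave 1423 to 2604 called genes, 694 to 1234 higher and 716 to 1370 lower, 100 to 150 over 2-fold, 7261 to 8213 intervals within 1.5-fold and 10427 to 11114 within 2-fold, and a share difference of -1.91 to 0.0507 percentage points for the 100 most abundant genes. Under library totals class 4 held 181 lower genes and class 5 held 378 higher and 295 lower, and the biochanin A medians against solvent were -0.678 for genes higher and 0.264 for genes lower with extract; the solvent medians under other scalings were computed after the data were seen. With classes from the solvent libraries, class 1 held 10 higher and 36 lower genes. The cause of these shifts was not tested. Depth limits genes of low abundance: the median half-width of the interval was 1.54 on the log2 scale in class 1 and 0.14 in class 5.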

Other observations

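Gene identifiers share a prefix before the gene number, and the labels do not say what a prefix stands for. Of 314 prefixes among the compared genes, 48 held at least 100 genes, and each of these 48 held genes called in both directions between extract and biochanin A. With 7.57% of all genes called in each direction, a prefix of this size is likely to hold both. The extremes given next are picked from the 48, and the spread to be expected at their sizes was not computed. The share called ran from 10.6% for AgB18 (8 higher and 3 lower with extract of 104) to 22.9% for AgR024 (14 higher and 18 lower of 140), beside 15.1% of all genes. The lowest median log2 difference among the 48 was -0.115 for AgR027X, with 5 genes higher and 18 lower of 120, and the highest was 0.102 for AgR033, with 16 higher and 6 lower of 107.

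Genes with consecutive numbers formed 12819 pairs in which both genes were compared, and both were called in 519. In 213 of these both were higher with extract, in 201 both were lower and in 105 the directions were opposite. Of the genes that followed a called gene, 25.8% were called, and of those that followed an uncalled gene, 13.6%. Reads that overlap 2 neighbouring genes may have been counted for both, and their part in these counts was not tested.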
